A study of Homo sapiens with 24 samples.

Results

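Silencing of RELA was compared directly with silencing of RELB in spheroids of OV90, a line established from human epithelial ovarian cancer, by sequencing of small RNAs (miR-seq). The members were the 8 spheroid libraries labelled as RELA or RELB shRNA knockdown, 4 each, of 24 libraries in the series. Cells carried a doxycycline-inducible shRNA against RELA (shRELA) or RELB (shRELB), and the other 16 libraries were adherent cultures of both lines and cultures of a negative control shRNA line (shNeg, whose labels read wild type). All groups received 1 µg/ml doxycycline for 72 h, the knockdown groups and shNeg alike. Spheroids were kept in ultra-low attachment vessels in defined medium with EGF and FGF, which favors growth of tumor-initiating cells (TICs), while adherent cells grew in serum-containing medium. The sources used here do not say whether each line was a clone or a pool, or whether the replicates came from separate cultures, so p-values measure the spread between these libraries, which may be technical. miR-seq does not read mRNA, and the extent of RELA or RELB silencing could not be checked in these libraries.

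Total counts were 2024143 to 2747612 in the 4 shRELA libraries (median 2279102.5) and 1861240 to 3580939 in the 4 shRELB libraries (median 2376577.5). Between 801 and 1006 miRNAs had a count in each of these 8 libraries, and the 10 most abundant miRNAs took 60.3% to 66.6% of its counts. Levels are given as CPM, the counts of a miRNA relative to its library total after scaling by the TMM method, which assumes most miRNAs do not differ. A count of 0 allows up to 3 counts, worth 0.838 to 1.61 unscaled CPM in these libraries, and this limit covers counting error only. The library of shRELA replicate 1 stood apart from the other 3 shRELA libraries: the chi-square per degree of freedom between replicate pairs was 162 to 200 with it and 10.2 to 19.9 without it. Among the 4 shRELB libraries this value was 216 or more in pairs with replicate 4 and 32.5 to 174 in the other pairs. Spheroid shNeg replicate 1 had counts for 432 miRNAs. It was in neither group compared but entered the filter, the scaling and the shared estimate of the spread.

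RELA and RELB are subunits of the NF-κB transcription factors. RELA, paired with p50, acts in the canonical pathway downstream of inflammatory receptors such as those for TNF, and RELB, paired with p52, acts in the non-canonical pathway downstream of receptors such as CD40. A miRNA is cut from a hairpin transcript, either arm of which can be kept, and it represses mRNAs that pair with its seed, the stretch from base 2 to base 8 of the mature strand. miRNAs with the same seed can therefore act on the same mRNAs, and miRNAs whose hairpins lie next to each other are often made from a common transcript. In ovarian cancer, let-7 miRNAs are known as repressors of growth and stem cell genes, the miR-200 family as keepers of the epithelial state through repression of ZEB1 and ZEB2, and miR-302 as a mark of pluripotent cells.

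The mature sequences on which the results turn are shown 5′ to 3′ with the seed in capitals, taken from RefSeq (GRCh38.p14). The lines for miRNAs that were higher with shRELB come before those for miRNAs that were higher with shRELA, and they show which of them share a seed.
miR-125b-5p: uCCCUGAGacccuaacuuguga
miR-99a-5p: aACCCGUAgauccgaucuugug
let-7c-5p: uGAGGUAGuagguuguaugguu
miR-302a-5p: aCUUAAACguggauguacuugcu
miR-302a-3p: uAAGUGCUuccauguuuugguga
miR-302b-3p: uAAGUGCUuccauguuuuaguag
miR-302d-3p: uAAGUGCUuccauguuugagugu
miR-184: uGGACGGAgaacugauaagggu
miR-135b-5p: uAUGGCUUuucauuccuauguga
miR-143-3p: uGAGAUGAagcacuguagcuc
miR-146a-5p: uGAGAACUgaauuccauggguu
miR-200c-3p: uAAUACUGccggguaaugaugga
miR-141-3p: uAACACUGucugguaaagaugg
let-7b-5p: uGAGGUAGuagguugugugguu
let-7d-5p: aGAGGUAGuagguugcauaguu
miR-105-5p: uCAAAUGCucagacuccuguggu
miR-767-5p: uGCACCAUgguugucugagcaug
miR-378a-3p: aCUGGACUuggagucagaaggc
miR-378a-5p: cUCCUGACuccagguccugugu
miR-30a-5p: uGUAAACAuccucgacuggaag
miR-215-5p: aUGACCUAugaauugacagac
miR-194-5p: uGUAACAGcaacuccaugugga
miR-509-3p: uGAUUGGUacgucuguggguag

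In spheroids, 60 of 905 miRNAs tested differed between shRELA and shRELB (6.63%). Of these, 25 were higher with shRELA (2.76%) and 35 were higher with shRELB (3.87%). A miRNA was called when it differed by more than 2-fold in either direction and its false discovery rate (FDR) was under 0.01 in edgeR's quasi-likelihood test. The share of calls higher with shRELA was 41.7%, and it was 25.4% of 63 calls when libraries were scaled to their totals and 52.2% of 69 calls with upper-quartile scaling, where the median log2 fold change of all miRNAs was -0.22 and -0.02. The miRNAs higher with shRELB included miR-125b-5p, miR-99a-5p and let-7c-5p of chromosome 21, the miR-302 cluster, miR-184, miR-483-5p, miR-146a-5p and miR-200c-3p. Those higher with shRELA included miR-105-5p and miR-767-5p of the X chromosome, both arms of miR-378a, let-7d-5p, let-7b-5p, miR-30a-5p, miR-194-5p and miR-215-5p.

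Fold changes are of shRELA over shRELB, so a negative log2 value marks a miRNA that was higher with shRELB. The median log2 fold change of all miRNAs tested was -0.10. Of the 60 called miRNAs, 48 averaged at least 10 CPM over the 8 libraries, 19 higher with shRELA and 29 higher with shRELB, and in all 48 the shRELA libraries did not overlap the shRELB libraries. Groups did not overlap in 59 of the 60, against 185 of the 905 tested (20.4%), 10.1% of the tested being higher with shRELA and 10.4% higher with shRELB. A call and a lack of overlap rest on the same values, so the lack of overlap is no added support for the calls. Without spheroid shNeg replicate 1, 98 of 900 miRNAs tested were called, 59 of the 60 among them, and the median log2 fold change of all miRNAs was -0.09. An unadjusted p below 0.05 was reached by 259 miRNAs (28.6%). For 3 pairs of entries (miR-3180 and miR-3180-3p, miR-199a-3p and miR-199b-3p, miR-517a-3p and miR-517b-3p) the table holds identical values, so 57 called miRNAs were distinct.

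**Figure D1:**
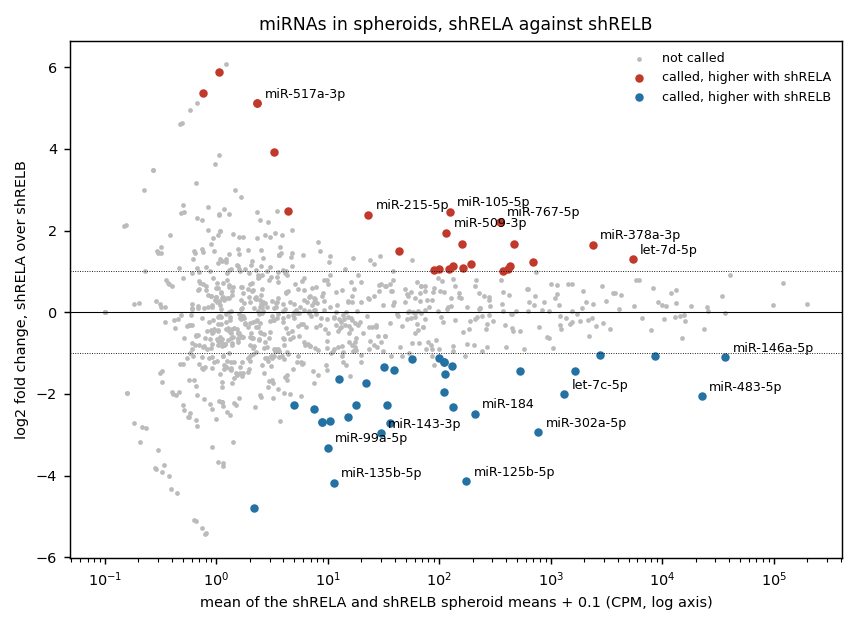
Log2 fold change of shRELA over shRELB in spheroids (vertical axis) against the mean level in CPM (log axis) for the 905 miRNAs tested. Red points mark the 25 miRNAs called higher with shRELA, blue points the 35 called higher with shRELB and gray points the rest, and dotted lines mark a fold change of 2 in either direction.

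miR-125b-5p had the smallest FDR of the contrast. Its levels were 29.1, 17.3, 13.9 and 15.2 CPM in the shRELA libraries and 273, 281, 327 and 442 CPM in the shRELB libraries. It was 17.6-fold higher with shRELB (log2 fold change -4.14 ± 0.24, SE, FDR 2.17e-15). Reads of miR-125b-5p can come from either of 2 hairpins, one in an intron of MIR100HG on chromosome 11 (chr11:122099757-122099844, minus strand) and one in an exon of MIR99AHG on chromosome 21 (chr21:16590237-16590325, plus strand). The 3p arm specific to the chromosome 21 hairpin, miR-125b-2-3p, was also higher with shRELB (log2 fold change -2.37 ± 0.55, FDR 0.00221), with 2.33 ± 1.92 CPM with shRELA and 12.6 ± 2.67 CPM with shRELB (SD, n = 4). The call for miR-125b-2-3p was lost without shRELA replicate 2 (-2.15, FDR 0.0125) and without shRELA replicate 3 (-2.02, FDR 0.0136).

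The other miRNAs of MIR99AHG moved with it. MIR99A and MIRLET7C lie together at chr21:16539089-16539911 on the plus strand, 50.3 kb before MIR125B2, and all 3 miRNAs tested from them were called higher with shRELB. let-7c-5p, a member of the let-7 family, was at 450, 623, 484 and 554 CPM with shRELA and at 2414, 2216, 1975 and 1837 CPM with shRELB. Every shRELB library was above every shRELA library, with a log2 fold change of -2.0 ± 0.18 (FDR 1.16e-10). miR-99a-5p, which belongs to a family with mTOR among its known targets, was at 2.81, 1.58, 0.895 and 1.9 CPM with shRELA and at 12.7, 16, 23.2 and 20.6 CPM with shRELB. The shRELA levels rest on 16 counts over 4 libraries, and the groups did not overlap (log2 fold change -3.32 ± 0.50, FDR 7.01e-06). miR-99a-3p had 1 count in all with shRELA and 42 with shRELB, a ratio of 35.5 after scaling with a 95% counting interval of 6.03 to 1434. miR-100-5p, whose hairpin lies in the chromosome 11 host MIR100HG, differs from miR-99a-5p by the substitution U16A (positions counted from 1 at the 5′ end, the base of miR-99a-5p first). It had 1 count with shRELA and 6 with shRELB, at or near the floor in both groups.

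The paralogs of these miRNAs on chromosome 19 were far more abundant and were not called. miR-125a-5p, which carries the same seed as miR-125b-5p, had a mean of 105121 CPM with shRELA and 92940 CPM with shRELB (log2 fold change 0.18). miR-99b-5p, which carries the seed of miR-99a-5p, had a mean of 26049 CPM with shRELA and 25269 CPM with shRELB (log2 fold change 0.04). In the list of miR-99/100 and miR-125 miRNAs as a whole, 9 members were tested. Of these, 4 were called higher with shRELB (3.87% over all 905 miRNAs) and none with shRELA. The list's median log2 fold change was -2.02. Its summed level did not separate the groups, at 125606 to 163649 CPM with shRELA and 110703 to 163954 CPM with shRELB.

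The miR-302 cluster was higher with shRELB. It lies in the host MIR302CHG at chr4:112647874-112648557 on the minus strand, and is known for its expression in embryonic stem cells. All 6 miRNAs tested from it had negative log2 fold changes, from -2.93 to -1.14, and 4 were called (3.87% over all 905 miRNAs). miR-302a-5p was the most abundant, at 160, 185, 173 and 203 CPM with shRELA and at 1395, 1350, 1496 and 1249 CPM with shRELB. The groups lay far apart, with a 7.61-fold higher level with shRELB (log2 fold change -2.93 ± 0.22, FDR 4e-12). The 3 called members with the seed AAGUGCU were present at lower levels. miR-302b-3p had 9.58 ± 1.88 CPM with shRELA and 62.6 ± 19.8 CPM with shRELB (log2 fold change -2.70 ± 0.39, FDR 3.3e-06). miR-302d-3p had 6.01 ± 1.36 CPM with shRELA and 29.5 ± 14.3 CPM with shRELB (-2.28 ± 0.36, FDR 1.85e-05). miR-302a-3p had 4.2 ± 3.1 CPM with shRELA and 25.9 ± 14.7 CPM with shRELB (-2.57 ± 0.46, FDR 8.62e-05). In the list of the miR-302 and miR-371 clusters, 8 of 16 members were tested, the median log2 fold change was -2.29, and 7 members had no count in these 8 libraries, among them miR-367-3p and miR-372-3p.

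Several miRNAs outside these clusters were also higher with shRELB. miR-184, a miRNA of epithelia such as the cornea, was at 58.6, 68.3, 60.9 and 66.1 CPM with shRELA and at 333, 391, 299 and 391 CPM with shRELB (log2 fold change -2.48 ± 0.21, FDR 3.7e-11). miR-135b-5p was near the detection limit with shRELA, at 0.937, 2.63, 0.895 and 0.38 CPM, and was at 18.4, 27.6, 25.6 and 12.9 CPM with shRELB. These were 10 counts against 218, and the log2 fold change was -4.17 ± 0.46 (FDR 1.73e-08). It was the only one of the 5 tested members of the miR-135 list that was called (6.63% over all 905 miRNAs), and the median of the list was -2.66. The list went in both directions, with 2 positive and 3 negative values from -5.29 to 2.46, and only 1 member averaged at least 10 CPM. miR-135a-5p, which has the seed of miR-135b-5p, was at 1.88 and was not called. miR-143-3p and miR-145-5p, which share the host CARMN on chromosome 5 and are best known from smooth muscle, were both called. miR-143-3p had 6.64 ± 2.17 CPM with shRELA and 52.7 ± 12.3 CPM with shRELB (-2.96 ± 0.30, FDR 1.87e-09). miR-145-5p had 9.85 ± 2.99 and 33.6 ± 9.4 CPM (-1.74 ± 0.34, FDR 0.000295). The other arms of these hairpins, miR-143-5p and miR-145-3p, were not called, with log2 fold changes of 1.01 and -0.06.

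Among abundant miRNAs, miR-483-5p, miR-146a-5p and miR-200c-3p were the 3 most abundant called higher with shRELB. miR-483-5p, from an intron of IGF2, was at 10909, 8096, 8279 and 8002 CPM with shRELA and at 37652, 32935, 24530 and 51715 CPM with shRELB (log2 fold change -2.06 ± 0.33, FDR 1.89e-05). Its other arm, miR-483-3p, had 891 ± 235 CPM with shRELA and 2397 ± 305 CPM with shRELB (-1.43 ± 0.19, FDR 7.23e-07). miR-146a-5p is induced by NF-κB and represses TRAF6 and IRAK1, adaptors upstream of it. It was at 21205, 25285, 22197 and 24495 CPM with shRELA and at 34828, 38940, 60827 and 65799 CPM with shRELB, without overlap (-1.10 ± 0.17, FDR 1.3e-05). Without shRELB replicate 4 the difference was -0.93 (FDR 0.000154) and missed the required fold change.

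miR-200c-3p and miR-141-3p are made from neighboring hairpins in MIR200CHG (chr12:6963699-6964191, plus strand) and repress ZEB1 and ZEB2. miR-200c-3p was at 3376, 6293, 5751 and 6783 CPM with shRELA, with replicate 1 the lowest, and at 15660, 12224, 11823 and 7210 CPM with shRELB (log2 fold change -1.08 ± 0.20, FDR 0.000144). The lowest shRELB library, at 7210 CPM, lay just above the highest shRELA library. The fold change missed the threshold without shRELA replicate 1 (-0.87), without shRELB replicate 1 (-0.91) and with upper-quartile scaling (-1.0). miR-141-3p was at 80.1, 76.7, 51.5 and 42.6 CPM with shRELA and at 170, 143, 131 and 97.2 CPM with shRELB (-1.11 ± 0.26, FDR 0.00268). This call was lost without shRELA replicate 3 (-1.01, FDR 0.0128), without shRELA replicate 4 (-0.93, FDR 0.0161) or without shRELB replicate 1 (-0.98, FDR 0.0141). In the miR-200 family 8 members were tested and 2 were called higher with shRELB (3.87% over all 905 miRNAs). All 8 log2 fold changes were negative under each of the 4 scalings, and the median was -1.07. miR-200a-3p, miR-200b-3p and miR-429 were not called, with log2 fold changes of -1.06, -0.79 and -3.29 at means of 3.44, 19 and 0.117 CPM with shRELA.

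In the opposite direction, miR-105-5p and miR-767-5p were higher with shRELA. Both lie in an intron of GABRA3 on the X chromosome (chrX:152392219-152394492, minus strand), a gene active in the testis and in some tumors. miR-105-5p was at 250, 214, 185 and 195 CPM with shRELA and at 41.1, 31.6, 44.2 and 36.7 CPM with shRELB. The lowest shRELA library was thus more than 4 times the highest shRELB library, and the log2 fold change was 2.46 ± 0.20 (FDR 1.29e-11). miR-767-5p was at 680, 535, 559 and 520 CPM with shRELA and at 122, 117, 111 and 141 CPM with shRELB (2.22 ± 0.16, FDR 2.29e-12). miR-767-3p was called at a lower level, 7.28 ± 4.02 CPM against 1.37 ± 1.05 CPM (2.48 ± 0.64, FDR 0.00644). This call was lost without shRELA replicate 1 (2.12) or 3 (2.47) and without shRELB replicate 1 (2.42), 2 (2.54) or 4 (2.08). miR-105-3p had 19 counts with shRELA and 4 with shRELB and was not called (2.40, 95% interval 0.67 to 4.14, FDR 0.0494). The median of these 4 miRNAs was 2.43.

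Both arms of miR-378a, which lies in an intron of PPARGC1B and is known from energy metabolism, were higher with shRELA. miR-378a-3p was at 3774, 3709, 2997 and 3893 CPM with shRELA and at 1509, 1128, 1113 and 831 CPM with shRELB (log2 fold change 1.65 ± 0.18, FDR 1.45e-08). miR-378a-5p was at 808, 681, 638 and 714 CPM with shRELA and at 228, 212, 238 and 212 CPM with shRELB (1.68 ± 0.19, FDR 1.56e-08). The 5 other miRNAs tested with the seed of miR-378a-3p (miR-378b, miR-378c, miR-378f, miR-378i and miR-422a) had log2 fold changes from 0.11 to 1.52 and were not called.

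miR-509-3p, which has 3 hairpins in a testis-active cluster on the X chromosome, was at 202, 152, 195 and 187 CPM with shRELA and at 53.8, 56.2, 40 and 39.9 CPM with shRELB (1.95 ± 0.22, FDR 1.56e-08). The p53-linked miRNAs miR-215-5p and miR-194-5p lie side by side on chromosome 1 (chr1:220117853-220118241, minus strand). miR-215-5p was at 25.3, 55.7, 43.4 and 30.4 CPM with shRELA and at 6.85, 3.99, 9.76 and 8.89 CPM with shRELB (2.39 ± 0.41, FDR 4.86e-05). miR-194-5p was at 279, 246, 249 and 201 CPM with shRELA and at 64.8, 49.9, 114 and 77.7 CPM with shRELB (1.67 ± 0.29, FDR 7.71e-05). miR-194-5p also has a hairpin beside MIR192 on chromosome 11. Of the 9 miRNAs tested in the list of p53-linked families (miR-34, miR-192, miR-194 and miR-215), these 2 were called. Over all 905 miRNAs, 2.76% were called higher with shRELA. The list's median log2 fold change was 1.67. miR-192-5p, which has the seed of miR-215-5p and differs from it by A1C and A20C (the base of miR-215-5p first), was not called, with means of 134 and 78.9 CPM (0.76, FDR 0.021).

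**Figure D2:**
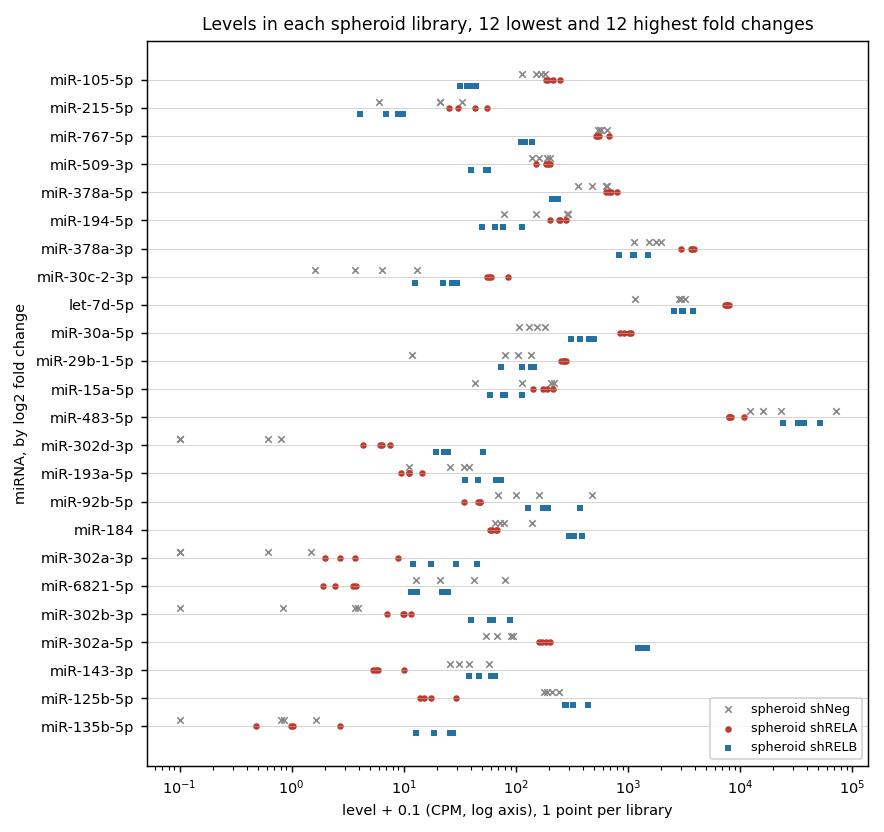
Level in CPM plus 0.1 (log axis) in each of the 12 spheroid libraries for the 12 lowest and 12 highest log2 fold changes among called miRNAs that averaged at least 10 CPM and had groups that did not overlap. Red circles are shRELA, blue squares shRELB and gray crosses shNeg libraries, and in each row the 4 circles lie to one side of the 4 squares.

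The let-7 family held calls in both directions. All 9 guide strands of the family list were abundant, with means of at least 10 CPM, and 8 of the 9 log2 fold changes were positive under each of the 4 scalings, with let-7c-5p the exception. let-7d-5p was at 7755, 8064, 7717 and 7385 CPM with shRELA and at 3128, 3045, 3815 and 2589 CPM with shRELB (log2 fold change 1.30 ± 0.20, FDR 1.24e-05). let-7b-5p was at 560, 577, 623 and 579 CPM with shRELA and at 305, 287, 259 and 225 CPM with shRELB (1.12 ± 0.18, FDR 1.78e-05). With library totals in place of TMM, let-7b-5p was at 0.99 and missed the fold change. let-7a-5p, among the most abundant miRNAs of all, had means of 150680 and 91424 CPM, and its difference of 0.72 had an FDR of 0.000109 but was below the fold required. The remaining 5 (let-7e, let-7f, let-7g, let-7i and miR-98) had log2 fold changes from 0.13 to 0.46. let-7b-5p and let-7a-5p differ from let-7c-5p by A17G and G19A, respectively (the base of let-7c-5p first), outside the seed, so a miscalled base can move a read between these entries. The family median was 0.40, and its summed level was 374926 to 462312 CPM with shRELA and 313671 to 348343 CPM with shRELB, without overlap.

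Of the miR-30 family, whose members are known to restrain mesenchymal genes, 11 were tested, and the median was 0.24. Of the 11, 3 were called higher with shRELA (2.76% over all 905 miRNAs) and none with shRELB (3.87%). miR-30a-5p was at 1070, 918, 849 and 1020 CPM with shRELA and at 376, 310, 448 and 500 CPM with shRELB (1.24 ± 0.20, FDR 1.89e-05). Its other arm, miR-30a-3p, was at 126, 130, 145 and 137 CPM with shRELA and at 57.5, 59.8, 68.3 and 72.3 CPM with shRELB (1.06 ± 0.21, FDR 0.000273). miR-30c-2-3p, from the neighboring hairpin in LINC00472, was at 85.8, 60.4, 57.3 and 55.5 CPM with shRELA and at 26.9, 29.6, 12.6 and 22.4 CPM with shRELB (1.5 ± 0.32, FDR 0.000981). Without shRELB replicate 3, the calls for miR-30c-2-3p (FDR 0.0108) and miR-30a-3p (0.98) were lost. miR-30e-5p and miR-30c-5p, which have the seed of miR-30a-5p, had log2 fold changes of -0.04 and 0.24 and were not called.

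Of the miRNAs tied to NF-κB, 15 were tested, and their median was -0.06, against -0.10 over all miRNAs. In each direction 1 was called, where 2.76% of all 905 miRNAs were called higher with shRELA and 3.87% with shRELB. The calls were miR-146a-5p, above, and miR-9-5p, which targets NFKB1 and was at 120 ± 15.6 CPM with shRELA and 58.3 ± 24.1 CPM with shRELB (1.03 ± 0.28, FDR 0.00866). The miR-9-5p call was lost under 10 of 22 alternatives, among them the fits without shRELA replicate 2, 3 or 4 (1.08, 1.07 and 0.98) and without shRELB replicate 1, 2 or 3 (0.88, 0.91 and 1.01). miR-21-5p, with means of 19262 and 17352 CPM, and miR-221-3p, with means of 15391 and 15997 CPM, had log2 fold changes of 0.15 and -0.06. miR-155-5p, known as a target of NF-κB in immune cells, was at 30, 42.5, 47.4 and 79.8 CPM with shRELA and at 72.2, 81.1, 65.6 and 69.4 CPM with shRELB. The groups overlapped, and the difference of -0.52 had a 95% interval of -1.13 to 0.08 (FDR 0.245).

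**Figure D3:**
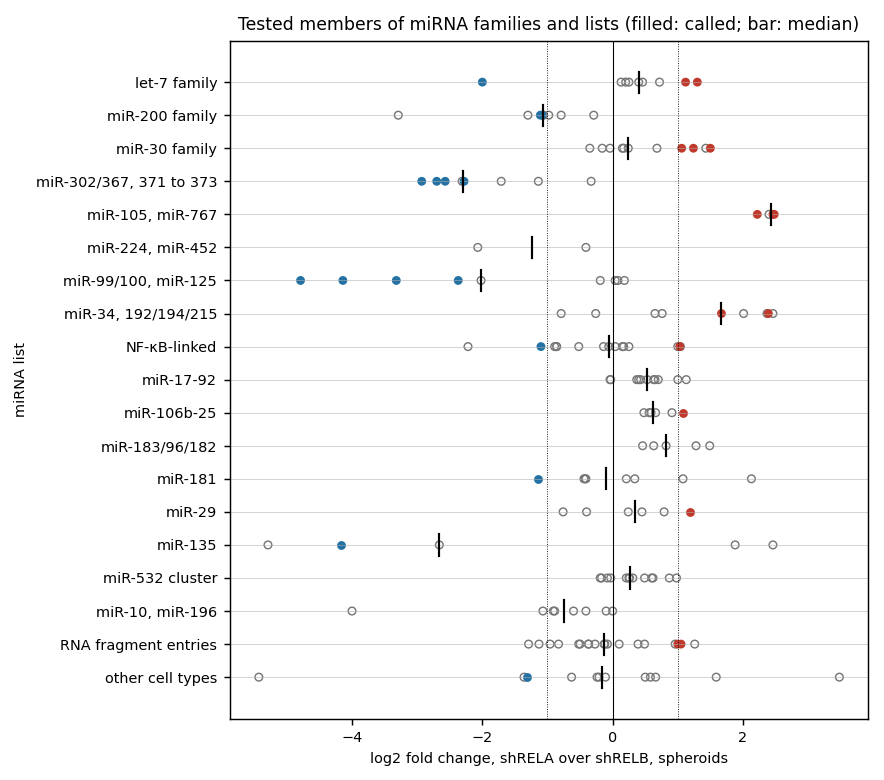
Log2 fold changes of shRELA over shRELB in spheroids (horizontal axis) for the tested members of 19 miRNA lists (rows). Filled points were called, red higher with shRELA and blue higher with shRELB, open circles were not called, black bars are medians, and dotted lines mark a fold change of 2. The row of the miR-302 and miR-371 clusters and that of miR-99, miR-100 and miR-125 have their medians at -2.29 and -2.02, and the row of miR-105 and miR-767 at 2.43.

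In each of the following lists at most 1 member was called, where 6.63% of all 905 miRNAs tested were called. Lists this short cannot tell such counts from that share. In the miR-106b-25 cluster, hosted by MCM7, miR-93-3p was called higher with shRELA (1.08 ± 0.28, FDR 0.00619) and all 6 members were positive, with a median of 0.63. The miR-93-3p call was lost without shRELA replicate 1 (0.88) and without shRELB replicate 1 (1.10), 2 (1.02) or 3 (1.01). The miR-17-92 list had no call among 11 members, a median of 0.53 and 9 positive values, which became 11 with upper-quartile scaling. The miR-106a-363 list had no call among 5 (median -0.60), and neither had the miR-183 cluster list among 5 (0.82), the miR-23/24/27 list among 9 (-0.15), the miR-532 cluster among 13 (0.26) or miR-10 and miR-196 of the HOX clusters among 8 (-0.75). In the miR-29 family, known to repress collagens, miR-29b-1-5p was called among 6 tested (1.19 ± 0.32, FDR 0.00976), at the edge of the FDR threshold, and the median was 0.34. The miR-29b-1-5p call was lost whichever of the 8 libraries was left out, with log2 fold changes from 1.04 to 1.27. In the miR-181 family, miR-181a-2-3p was called higher with shRELB among 8 tested (-1.14 ± 0.19, FDR 4.68e-05), and the median was -0.10. Without shRELA replicate 4, miR-181a-2-3p was at -1.0 and missed the fold change. miR-15a-5p, which targets BCL2, was at 181 ± 29.7 CPM with shRELA and 82.2 ± 22.6 CPM with shRELB (1.14 ± 0.31, FDR 0.00953), and this call was lost without shRELA replicate 1 (1.09), 2 (1.12) or 3 (1.17) and without shRELB replicate 1, 2 or 4 (from 1.03 upward).

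The remaining miRNAs with large changes are less often described. miR-92b-5p was at 47.8, 47.8, 45.7 and 34.6 CPM with shRELA and had 219 ± 106 CPM with shRELB (-2.32 ± 0.38, FDR 3.13e-05), while the other arm of the hairpin, miR-92b-3p, was at 166 ± 25.1 and 319 ± 21.3 CPM and fell short of the fold required (-0.94, FDR 7.49e-05). miR-193a-5p had 11.5 ± 2.16 CPM with shRELA and 55.7 ± 18.2 CPM with shRELB (-2.28 ± 0.34, FDR 7.01e-06). miR-6821-5p had 2.81 ± 0.891 and 17.9 ± 6.62 CPM (-2.66 ± 0.56, FDR 0.00105).

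Lists of entries that other cells or degraded RNA would supply were also read. Of miRNAs typical of erythroid cells, leukocytes, endothelium, muscle, liver and neurons, 12 of 15 were tested and 1 was called (6.63% over all 905 miRNAs). This was the erythroid miR-486-5p, with 75.4 ± 15.8 CPM with shRELA and 187 ± 35.2 CPM with shRELB (-1.31 ± 0.23, FDR 6.03e-05). Another erythroid miRNA, miR-451a, had a mean of 0.341 CPM with shRELA and no count with shRELB. The summed level of this list was 15724 to 17305 CPM with shRELA and 14526 to 22585 CPM with shRELB, its median log2 fold change was -0.16, and miR-144-3p and miR-142-5p had no count. miR-122-5p, known as a liver miRNA, made up most of that sum, with means of 14959 and 17306 CPM. Of 19 tested entries that overlap fragments of other small RNAs, miR-1260a (1.0 ± 0.21, FDR 0.000845) and miR-1260b (1.05 ± 0.23, FDR 0.0011) were called higher with shRELA (2.76% over all 905 miRNAs), and the list's median was -0.13. Both calls were lost without shRELA replicate 1 (0.90 and 0.96) and without shRELB replicate 3 (0.81 and 0.88), and that of miR-1260a also without shRELA replicate 4 (0.99). Its summed level was 5602 to 6313 CPM with shRELA and 5235 to 5733 CPM with shRELB. The part of either list in the differences above was not tested. In these bulk libraries, fewer cells of a type and less RNA per cell cannot be told apart.

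Among the 9 candidates that the study chose on these libraries, 3 were called higher with shRELA (miR-105-5p, miR-30a-5p and miR-30a-3p) and 1 was called higher with shRELB (miR-200c-3p), with a median of -0.26. Over all 905 miRNAs, 2.76% were called higher with shRELA and 3.87% with shRELB. As the study picked the candidates from the same samples, the count among them is not independent evidence. miR-452-5p was at 1.41, 1.58, 0.448 and 0.38 CPM with shRELA and at 4.74, 2.99, 2.32 and 5.45 CPM with shRELB. These were 8 counts against 42, the groups did not overlap, and the difference of -2.07 (95% interval -3.41 to -0.73) had an FDR of 0.0277. miR-335-5p was at 7.97, 13.7, 3.58 and 6.46 CPM with shRELA and at 16.3, 16.6, 12.6 and 13.2 CPM with shRELB. The ranges met between 12.6 and 13.7 CPM, and the difference of -0.91 had an interval of -1.99 to 0.17 (FDR 0.254). miR-34a-5p, a direct target of p53, had 2657 ± 381 CPM with shRELA and 3188 ± 294 CPM with shRELB (-0.26, interval -0.67 to 0.15, FDR 0.41).

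The study named 7 miRNAs as moving alike with both knockdowns, and 1 of them, let-7b-5p, was called here (6.63% over all 905 miRNAs). The median over the 7 was 0.99. miR-205-5p, a miRNA of squamous and basal epithelium, was at 1007, 939, 866 and 1147 CPM with shRELA and at 453, 488, 479 and 569 CPM with shRELB. The groups did not overlap and the FDR was 0.0001, but the log2 fold change of 0.99 ± 0.18 lay just under the threshold, and it passed under 7 of 22 alternatives. miR-224-5p, which lies in GABRE with miR-452, had 226 ± 23.1 CPM with shRELA and 301 ± 119 CPM with shRELB (-0.41, interval -0.82 to -0.01, FDR 0.167). Neither miRNA of the GABRE list was called, and its median was -1.24. miR-552-5p had 22 counts with shRELA and 3 with shRELB (2.99, interval 1.01 to 4.97, FDR 0.031). All 3 shRELB counts of miR-552-5p came from replicate 2, without which the fitted value was 6.17 and was called (FDR 0.00748), a value that is no bound as the remaining shRELB libraries were at 0. miR-552-5p was also called without a filter (FDR 0.0076), with the likelihood ratio test (FDR 0.00338) and without shNeg replicate 1 (FDR 0.0027). miR-675-5p had 3 counts and 1, too few to show a difference at this depth.

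Each called miRNA was also placed against the spheroid shNeg libraries, as a description. Their levels were not part of the contrast, but these libraries entered the filter, the scaling and the shared estimate of the spread. The range of shNeg replicates 2 to 4 was used. With all 4 shNeg libraries, an alternative chosen after seeing the data, the placement was the same for 35 of the 60 called miRNAs and another for 25. Of the 35 miRNAs higher with shRELB, 17 had an shRELA mean below this range and an shRELB mean above it, among them miR-125b-5p, let-7c-5p and miR-184. With all 4 shNeg libraries, 6 of the 17 kept this placement, these 3 included. miR-483-5p, at 71792 CPM in shNeg replicate 1, and miR-143-3p, at 57.2 CPM there, then had shRELB means within the range, and miR-99a-5p, at 0 CPM there, had its shRELA mean within it. In 10 of the 35, both means were above the range, among them the 4 called miR-302 miRNAs, miR-146a-5p, miR-200c-3p and miR-141-3p, and 8 of the 10 kept this placement with all 4 shNeg libraries. In 4, the shRELA mean was below and the shRELB mean within it. In 3, both were below it, and in 1, miR-135b-5p, the shRELA mean was within and the shRELB mean above it. miR-302a-5p, for example, was at 54.7 to 95.4 CPM in these shNeg libraries against means of 180 CPM with shRELA and 1372 CPM with shRELB. miR-184 was at 65.7 to 77.9 CPM, near the 63.5 ± 4.5 CPM of shRELA and below the 354 ± 45.6 CPM of shRELB.

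Of the 25 miRNAs higher with shRELA, 8 had an shRELA mean above the shNeg range and an shRELB mean within it, among them let-7d-5p. With all 4 shNeg libraries, 15 of the 25 kept their placement. In 7, the shRELA mean was within and the shRELB mean below the range, among them miR-767-5p, miR-194-5p and miR-509-3p. With all 4 shNeg libraries, these 3 kept this placement, and both means of miR-1260a, miR-1260b, miR-15a-5p and miR-767-3p were within the range. In 5, among them miR-105-5p, miR-215-5p and both arms of miR-378a, the shRELA mean was above and the shRELB mean below the range. With all 4 shNeg libraries, the shRELB means of miR-215-5p, miR-378a-3p and miR-93-3p were within the range. In 3, all of the miR-30 family, both were above it, and in 2, let-7b-5p and miR-326, both were below it, and with all 4 both means of miR-326 were within it. let-7b-5p was at 3149 to 3652 CPM in these shNeg libraries against means of 585 CPM with shRELA and 269 CPM with shRELB. miR-767-5p was at 545 to 578 CPM with shNeg, near the 573 ± 72.8 CPM of shRELA and above the 123 ± 12.6 CPM of shRELB.

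The same contrast in adherent culture called 99 of 905 miRNAs (10.9%), 39 higher with shRELA (4.31%) and 60 higher with shRELB (6.63%). Of the 60 spheroid calls, 43 were also called in adherent culture, which is 71.7% of the spheroid calls and 43.4% of the adherent calls, and 42 of the 43 had the same direction. The exception was miR-509-3p. Of the 35 miRNAs higher with shRELB in spheroids, 31 were called in that direction in adherent culture too, and of the 25 higher with shRELA, 11 were. Over the 329 miRNAs that averaged at least 10 CPM across the 16 knockdown libraries, the Spearman correlation of the log2 fold changes of both cultures was 0.71, and over all 905 it was 0.42. These are descriptions across miRNAs, which are not independent replicates.

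Adherent cultures carried the same shRNAs, so a difference that belongs to silencing and one that belongs to the line carrying the shRNA cannot be told apart in either culture. In adherent cells, miR-125b-5p was at 15.2 ± 1.16 CPM with shRELA and 577 ± 101 CPM with shRELB (log2 fold change -5.24), miR-99a-5p was at -5.74 and let-7c-5p at -2.08 on the same scale. The miR-302 cluster was also higher with shRELB in adherent cells, with miR-302a-5p at 89.1 ± 28.3 and 320 ± 72 CPM (-1.84). miR-105-5p and miR-767-5p had log2 fold changes of 1.41 and 1.33. The difference between cultures did not pass the threshold for miR-125b-5p (FDR 0.0326), miR-99a-5p (0.0569), let-7c-5p (0.957), miR-302a-5p (0.0326), miR-105-5p (0.0219) or miR-767-5p (0.0217).

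The difference of the contrast between cultures was tested as an interaction and was called for 13 miRNAs (1.44%), 11 of them with the more positive log2 fold change in spheroids (1.22%) and 2 with the more negative (0.221%). The smallest FDR belonged to miR-509-3p. In spheroids it was higher with shRELA, as above, and in adherent cells it was lower with shRELA, at 2.82 ± 0.272 CPM against 8.14 ± 1.42 CPM with shRELB (log2 fold change -1.51, FDR 2.57e-05). The difference was 3.46 ± 0.33 (FDR 4.77e-09), and it was called under each of 28 alternatives. miR-335-5p differed in the opposite direction: with shRELA it was at 145, 96.2, 62.7 and 234 CPM in adherent cells and with shRELB at 21.7, 13.6, 28.6 and 22.2 CPM (2.64 ± 0.46, FDR 4.54e-05), against -0.91 in spheroids. This difference of -3.55 ± 0.69 had an FDR of 0.00348, and limma did not call it (FDR 0.0688 and 0.15 with a pseudocount of 1 and 0.5). miR-184 had a smaller difference in spheroids than in adherent cells, where it was at 52.8 ± 4.53 CPM with shRELA and 762 ± 76.3 CPM with shRELB (difference 1.37 ± 0.28, FDR 0.00348). Both arms of miR-378a differed by 1.65 and 1.68 in spheroids and by 0.50 and 0.51 in adherent cells (differences 1.15 and 1.16, FDR 0.00505 and 0.00517). The number of differences called was 2 without spheroid shRELB replicate 3, 7 without adherent shRELB replicate 1 or 2, 8 without spheroid shRELA replicate 1 or adherent shRELA replicate 2, and 33 without spheroid shNeg replicate 1.

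**Figure D4:**
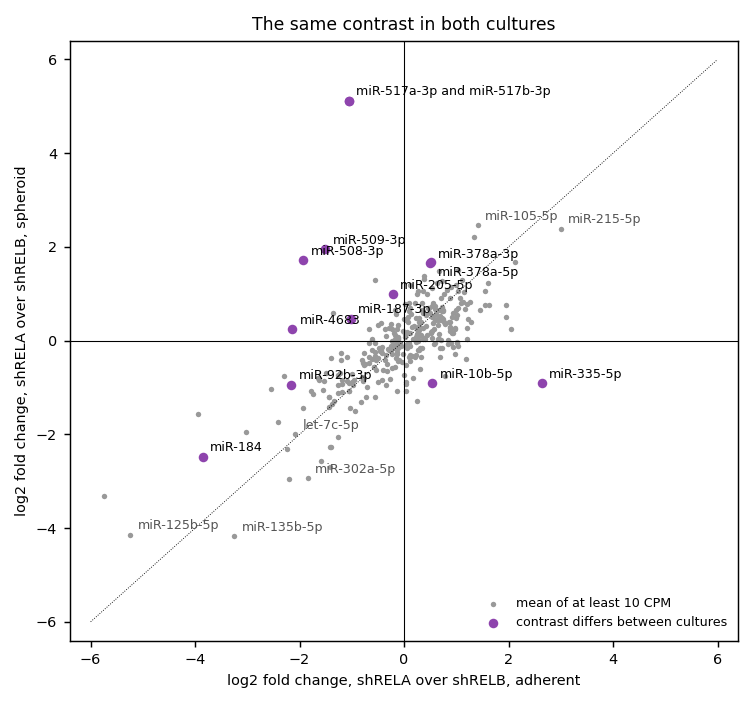
Log2 fold change of shRELA over shRELB in spheroids (vertical axis) against the same in adherent culture (horizontal axis) for the 329 miRNAs that averaged at least 10 CPM over the 16 knockdown libraries, and for the 13 miRNAs whose contrast differed between cultures (purple, labelled). The dotted line marks equal values, and miR-509-3p lies in the upper left quadrant, at 1.95 in spheroids and -1.51 in adherent cells.

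The arms of single hairpins were compared with each other. Among 51 hairpins whose arms both had a mean of at least 10 CPM and a unique locus, the Spearman correlation of the log2 fold changes of the 5p and 3p arms was 0.76, and among all 167 hairpins with both arms tested it was 0.39, as descriptions. In 6 of these hairpins both arms were called, each with the same direction (miR-302a, miR-30a, miR-378a, miR-503, miR-767 and miR-99a). The arms of miR-483, both called higher with shRELB, had no sequence in the source used and were not counted. In 12 of the 167 hairpins 1 arm was called, and in 9 of these the other arm had the same sign. Arms of a hairpin share their transcript and are not independent. Of the called miRNAs with a sequence in the table used, the median GC content was 47.8% for those higher with shRELA (n = 25) and 52.2% for those higher with shRELB (n = 31), against 54.5% for the 795 tested miRNAs with a sequence. The quartiles of both called groups overlapped, at 45.5% to 52.2% and 40.9% to 59.1%. The Spearman correlation of GC content with the log2 fold change was -0.13 over the 795. It was -0.04 over the 295 of them that averaged at least 10 CPM.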

How the data were processed

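Small RNA libraries of 24 OV90 samples (6 groups of 4) were analysed, grouped by their GEO labels. Per the labels and the methods, cutadapt removed adapters, and miRDeep2 was then used by the authors to count mature miRNAs of miRBase (GRCh38). The deposited table holds unscaled estimated counts for 2656 miRNAs, 843 of them without a count in any library, although its title speaks of CPM. Of the nonzero values, 3.04% were not whole, on 84 miRNAs, and were rounded here. The mismatches allowed in assigning reads and any collapse of molecular identifiers are not given in the sources used here, so reads of near-identical paralogs (let-7, miR-99/100, miR-302) may be split between entries.

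A miRNA was tested if 4 or more libraries reached 1 CPM (905 miRNAs, holding at least 99.98% of each library's counts). All 24 libraries were fitted with edgeR 4.0.16 (R 4.3.3, TMM scaling, glmQLFit and glmQLFTest, Benjamini-Hochberg adjustment), with contrasts of shRELA minus shRELB in spheroids, in adherent cells and as their difference. The common dispersion was 0.0887. Standard errors were derived from the F statistic, and intervals are 95% intervals of the fit. CPM here were computed from the deposited counts. The script was tested on simulated data.

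miRNAs were named by rule: the 12 highest and 12 lowest log2 fold changes among called miRNAs with non-overlapping groups and a mean of at least 10 CPM, the 3 most abundant calls in each direction, the candidates of the study, called members of the lists, the 5 highest and 5 lowest called differences between cultures, and other arms or hairpins within 10 kb. Other called miRNAs were named after their values were seen. The groups, lists and rules were chosen with earlier results of these data known. Hairpins and mature sequences came from RefSeq (GRCh38.p14), with a sequence for 795 of the 905 miRNAs and 56 of the 60 called. Alternatives were other scalings, filters, tests (DESeq2 1.42.0, limma 3.58.1), sets of libraries and thresholds, leaving out each library, and a replicate block.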

Additional observations from a re-analysis of the deposited data

Results flagged for a closer look

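In 10 of 108 groups of 4 libraries tested by Dixon's ratio, 1 library lay far from the other 3, where chance gives about 1 in 20. In shRELA spheroids, miR-143-3p was at 9.88 CPM in replicate 4 against 5.25 to 5.82 CPM in the others, miR-224-5p at 260 CPM in replicate 4 against 212 to 220 CPM, and miR-92b-5p at 34.6 CPM in replicate 4 against 45.7 to 47.8 CPM. In replicate 1, miR-30c-2-3p was at 85.8 CPM against 55.5 to 60.4 CPM, miR-4683 at 38.4 CPM against 14.1 to 17.3 CPM, and miR-483-5p at 10909 CPM against 8002 to 8279 CPM. The other 4 groups had a single library above 0: miR-100-5p at 0.525 CPM in shRELA replicate 2, miR-99a-3p at 0.469 CPM in shRELA replicate 1, and miR-552-5p at 0.997 CPM and miR-675-5p at 0.332 CPM in shRELB replicate 2. With a single library above 0 the ratio is always 1.000, so the rate of 1 in 20 does not apply to these 4 groups.

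The contrast of shRELA against shRELB differed between spheroid and adherent culture for 13 miRNAs by the interaction in edgeR's quasi-likelihood test. The difference (spheroid minus adherent log2 fold change) was 3.46 for miR-509-3p (FDR 4.77e-09). It was -3.55 for miR-335-5p, 1.37 for miR-184, 1.21 for miR-205-5p, 1.21 for miR-92b-3p and -1.44 for miR-10b-5p, each with an FDR of 0.00348. It was 1.49 for miR-187-3p (FDR 0.00385), 1.15 for miR-378a-3p (FDR 0.00505), 1.16 for miR-378a-5p (FDR 0.00517), 2.38 for miR-4683 (FDR 0.00505) and 3.65 for miR-508-3p (FDR 0.00538). The entries miR-517a-3p and miR-517b-3p, which hold identical values, had a difference of 6.17 (FDR 0.00348) from 39 spheroid counts with shRELA and 1 with shRELB. Of 17 fits that each left out 1 library, the difference was called in 17 for miR-509-3p and miR-335-5p (over all 28 alternatives, in 28 and 26, with both losses of miR-335-5p under limma), in 7 for each arm of miR-378a and in 5 for miR-508-3p.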

How the results depend on the processing

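Of 40 named miRNAs called in spheroids, 25 were called under every alternative in which they were tested and 15 were lost under 1 or more, with no reversal among them. miR-4683, not called (0.24), reversed without spheroid shRELA replicate 1 (-0.18) and was at 0.57 without spheroid shRELB replicate 4. Leaving out 1 library gave 53 to 68 spheroid calls, 73 to 103 adherent calls and 2 to 15 called differences, and 38 of the 60 spheroid calls were kept in all 8 fits that left out a compared library. The spheroid count was 97 with edgeR's likelihood ratio test, 98 without spheroid shNeg replicate 1 and 107 at an FDR of 0.05. It was 77 with only the groups compared. With only the 12 spheroid libraries it was 40, of which 11 were higher with shRELA and 29 higher with shRELB. Among the named miRNAs, that fit lost the calls for miR-125b-2-3p, miR-141-3p, miR-30c-2-3p, miR-767-3p and miR-9-5p. It also lost those for miR-15a-5p, miR-29b-1-5p, miR-93-3p, miR-1260a and miR-1260b. The adherent count was 150 with only the groups compared and 154 at an FDR of 0.05. The count of differences was 24 without a filter, 29 with DESeq2, 31 with the likelihood ratio test, 7 with limma at either pseudocount, 32 with only the groups compared, 33 without spheroid shNeg replicate 1 and 33 at an FDR of 0.05. The cause of these changes was not tested. Same-numbered libraries did not deviate together (correlations of 0.00627 to 0.0456 in spheroids and -0.122 to 0.0609 in adherent cells), and 0 of 4 spheroid and 1 of 4 adherent numbers correlated best with their own. These correlations cannot tell whether same-numbered libraries were cultured or prepared together. With the replicate block the counts were 58, 87 and 11, and with the block and only the groups compared, chosen after seeing the data, the spheroid count was 83. Depth limits miRNAs below about 1.61 CPM, the worth of 3 counts in the shallowest of the 8 libraries.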

Other observations

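The miRNAs below were chosen after their values were seen. In the cluster of MIR450B to MIR424 on the X chromosome (chrX:134540185-134546711, minus strand), 7 of 8 miRNAs tested had negative log2 fold changes in spheroids. Both arms of miR-503, known to restrain the cell cycle, were called higher with shRELB: miR-503-5p had 58.8 ± 3.69 CPM with shRELA and 167 ± 20.5 CPM with shRELB (log2 fold change -1.5 ± 0.21, FDR 2.21e-06, edgeR), and miR-503-3p had a log2 fold change of -1.42 (FDR 5.54e-05).

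In the primate-specific cluster of chromosome 19 (chr19:53666679-53762430, plus strand), known from the placenta, all 12 entries tested had positive log2 fold changes. These were 6 distinct sets of counts, since 6 entries (miR-518e-5p among them) held identical counts, and the median over the distinct sets was 1.35. Only miR-517a-3p and miR-517b-3p, which hold identical values, were called, with 39 counts with shRELA and 1 with shRELB, a ratio of 46.2 with a counting interval of 7.81 to 1870. miR-605-5p (17 counts against 0) and miR-653-3p (12 against 0) were at least 1.57-fold and 1.1-fold higher with shRELA when the floor was set at 3 counts per library.

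The pancreatic islet miRNA miR-375-3p had 1790 ± 645 CPM with shRELA and 3698 ± 408 CPM with shRELB (-1.05 ± 0.24, FDR 0.00229).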
